A study of Mus musculus with 12 samples.

Results

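Aminoacyl-tRNA synthetases and the scaffold proteins that bind several of them were followed in mouse Th9 cells, the CD4+ T helper cells that secrete IL-9. The family was chosen with earlier results of these data known, and its members were then taken by gene symbol, with no measured value in the rule, as the synthetase of each amino acid in its cytosolic form (symbols ending in ars or ars1) and mitochondrial form (ending in ars2), the phenylalanine enzyme's subunits Farsa and Farsb, the glutamate and proline enzyme Eprs1, and the scaffold genes Aimp1, Aimp2 and Eef1e1. This gave 40 genes of the 32051 in the expression table, namely 18 of cytosolic enzymes, 17 of mitochondrial enzymes, 2 whose products serve both places (Gars1 and Kars1) and 3 scaffold genes. All 40 passed the filter on low values, which required 0.1 FPKM on average in the 12 libraries. FPKM counts fragments relative to exon length and library size, so it is a level per length and can be compared between genes.

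The Th9 cells were grown out of naive CD4+ T cells that came from spleens of C57BL/6J mice, and RNA was taken on day 4. Every culture, controls included, received IL-4 (10 ng/mL) and TGF-β (1 ng/mL). The study's Th9 protocol also stimulates the cells with antibodies to CD3 and CD28, and adds antibodies against IL-12 and interferon-γ. The 4 groups of 3 libraries differed only in the compounds added, which were the solvent DMSO, 10 μM EpA (a cyclic lipopeptide from a fungus), 5 μM fatostatin (an inhibitor of SREBP, the transcription factor family that switches on sterol and fatty acid synthesis) with DMSO, or EpA and fatostatin together. The study calls its Th9 samples independent without saying in what respect. Nothing in the labels says whether the 3 libraries of a group came from separate mice or cultures, so every p-value measures the spread between libraries, which may be technical.

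Each synthetase joins 1 kind of amino acid to its tRNA, the step that fixes which residue a codon adds to a protein. Mammalian cells make separate enzymes for the cytosol and for the mitochondrion, and both sets are encoded in the nucleus. Several cytosolic enzymes sit together with Aimp1, Aimp2 and Eef1e1 in a large multisynthetase complex. Activated T cells raise amino acid uptake and protein synthesis. When a tRNA lacks its amino acid, the kinase GCN2 (Eif2ak4) phosphorylates eIF2α, and translation of the transcription factor ATF4 goes up. ATF4 is known to activate amino acid transporters, amino acid synthesis genes and many cytosolic synthetases.

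The libraries held 36607303 to 44375791 reads on genes, and between 235 (Ears2) and 18908 (Vars1) reads fell on a member in a library. The 6 CD4 T cell markers found summed to 574 to 585 FPKM with DMSO, 503 to 508 with EpA, 557 to 574 with fatostatin and 481 to 485 with both compounds. The lists of 6 myeloid, 4 NK, 4 dendritic and 5 B cell markers each summed to at most 8.68 FPKM in any library, the 2 CD8 T cell markers to 6.98 to 10.2, and the dendritic marker Siglech was at 0. Il9, the cytokine that names the cells, was at 51.0 to 57.7 FPKM with DMSO, 619.9 to 652 with EpA, 60.7 to 70.8 with fatostatin and 802 to 855 with both. Cd4 itself went the other way from this sum, with 78.1 to 78.4 FPKM with DMSO, 86.2 to 87.1 with EpA, 82.8 to 85.6 with fatostatin and 89.6 to 92.2 with both, while Lck, Cd3g, Cd3d, Cd3e and Cd28 were lower in every EpA library than in every DMSO library. The part that these markers play in the results was not tested. In bulk RNA, fewer cells of a type and less RNA per cell cannot be told apart.

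Cytosolic synthetases stood far above their mitochondrial counterparts. Mean levels of the 18 cytosolic genes over the 12 libraries ran from 14.3 FPKM (Cars1) to 70.9 FPKM (Vars1), with a median of 41.1. Between them, among others and in falling order, came Hars1, Nars1, Rars1, Mars1, Sars1, Farsb, Iars1, Qars1, Lars1, Wars1, Tars1, Aars1, Yars1, Farsa and Eprs1. Gars1 and Kars1, each of which makes its cytosolic and its mitochondrial enzyme from 1 gene, had means of 112 and 80.7 FPKM. The 17 mitochondrial genes ran from 1.30 FPKM (Ears2) to 15.2 FPKM (Rars2), with a median of 5.11. Their order, among those named here, was Rars2, Iars2, Lars2, Hars2, Tars2, Yars2, Sars2, Cars2, Fars2, Vars2, Pars2, Aars2, Mars2, Nars2, Wars2 and Ears2, and several neighbours in both orders, such as Fars2 and Vars2 (5.11 and 4.98 FPKM), were closer than the spread of their libraries. The scaffold genes Aimp2, Aimp1 and Eef1e1, at 26.0, 16.1 and 13.7 FPKM, lay between these medians.

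In the DMSO group, the cytosolic enzyme exceeded the mitochondrial one for the same amino acid in all 18 pairs, in which Eprs1 and Fars2 each take part more than once. The ratio of FPKM ran from 2.79 ± 0.0436 for cysteine (Cars1 over Cars2) to 30.7 ± 2.67 for asparagine (Nars1 over Nars2), with a median over pairs of 7.43 (SD, n = 3 libraries). Isoleucine, tyrosine, threonine, leucine, arginine and cysteine had the lowest ratios, whereas asparagine, tryptophan and methionine had the highest. For methionine, the amino acid that starts every protein, Mars1 exceeded Mars2 16.9 ± 0.717-fold.

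**Figure D1:**
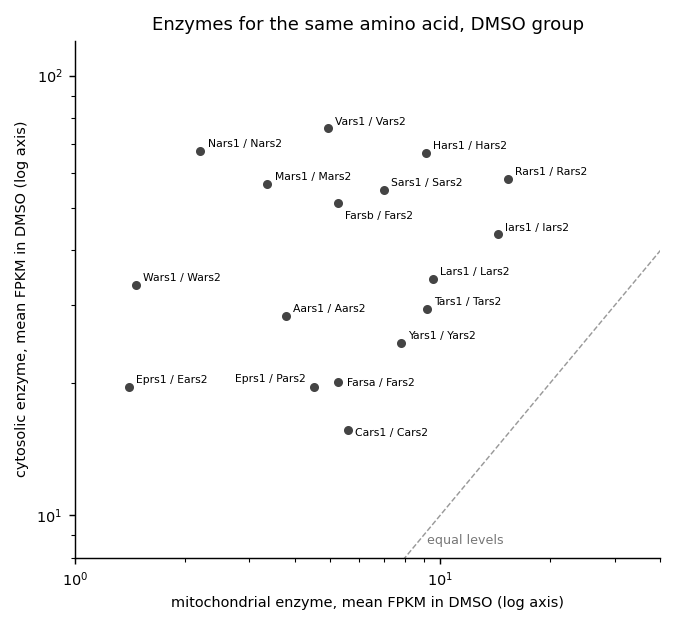
Mean FPKM of the cytosolic enzyme (vertical, log axis) against that of the mitochondrial enzyme for the same amino acid (horizontal, log axis) in the 3 DMSO libraries, with 1 point for each of 17 pairs and a dashed line where levels are equal. All 17 plotted pairs lie above the line, from 2.79-fold for Cars1 and Cars2 to 30.7-fold for Nars1 and Nars2.

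The sequences near the start sites were searched for letters that ATF4 and related factors are known to bind, because many cytosolic genes changed in the same direction in the comparisons described next. The motif was TGATGNAA or, on the other strand, TTNCATCA, the core of the C/EBP-ATF response element, and it was chosen after the results were known. RefSeq start windows of 300 bases (250 before and 50 after the start, build GRCm38.p6) were at hand for 30 of the 40 members. Vars1, Hars1, Nars1, Rars1, Lars1, Wars1, Cars1, Hars2 and Pars2 were among those with none. The motif was in 5 of 13 cytosolic or dual members with a window, namely Iars1, Tars1, Aars1, Yars1 and Gars1, and in 0 of 14 mitochondrial and 0 of 3 scaffold members. Of all 32851 windows 3.97% held it, and of the 10044 genes in the fit that had a window 2.82% did. Such a match is a description of the letters and not of binding. The 30 bases around a match past the start site are shown first, since in Iars1 and Yars1 the match lies there, 8 and 4 bases into the transcript. Aars1 had a match 10 bases into the transcript as well. Capitals mark the motif, and each sequence reads 5′ to 3′ along the gene's strand.
Iars1, chr13:49682126-49682155, plus strand: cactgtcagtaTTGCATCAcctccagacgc
Yars1, chr4:129189895-129189924, plus strand: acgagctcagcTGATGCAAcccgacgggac
Aars1, chr8:111033840-111033869, plus strand: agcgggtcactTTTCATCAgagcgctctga
In Tars1, Aars1 and Gars1 a match lies before the start, beginning 15, 112 and 30 bases upstream. The 250 bases before each of those starts are shown for its place.
Tars1, chr15:11399659-11399908, minus strand: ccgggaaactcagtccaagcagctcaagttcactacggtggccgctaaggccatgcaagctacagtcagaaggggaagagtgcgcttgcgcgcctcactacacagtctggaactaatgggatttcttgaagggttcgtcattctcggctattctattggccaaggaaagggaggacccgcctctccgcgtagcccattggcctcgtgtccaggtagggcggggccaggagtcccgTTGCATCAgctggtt
Aars1, chr8:111033592-111033841, plus strand: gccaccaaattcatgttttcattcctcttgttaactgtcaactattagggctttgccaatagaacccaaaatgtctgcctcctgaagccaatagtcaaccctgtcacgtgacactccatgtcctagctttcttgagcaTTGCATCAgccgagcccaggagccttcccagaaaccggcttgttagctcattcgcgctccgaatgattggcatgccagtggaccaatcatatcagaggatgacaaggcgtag
Gars1, chr6:55037751-55038000, plus strand: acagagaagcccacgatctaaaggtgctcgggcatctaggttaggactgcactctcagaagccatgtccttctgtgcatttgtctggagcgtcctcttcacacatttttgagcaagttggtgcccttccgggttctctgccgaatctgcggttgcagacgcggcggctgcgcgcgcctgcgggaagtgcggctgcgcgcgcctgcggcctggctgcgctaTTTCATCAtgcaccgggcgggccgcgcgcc
The E-box CACGTG, a palindrome that SREBP and other factors with a helix-loop-helix can bind and whose matches overlapped 0 matches of the other motif in the members, was in the windows of 5 of the 30 members (Farsb, Iars1, Tars1, Aars1 and Ears2), or 16.7%, against 11.5% of the genes in the fit. It was in 4 of the 13 cytosolic or dual members with a window and in 1 of the 14 mitochondrial ones.

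The first comparison asked what EpA did to the synthetase genes of Th9 cells. Of the cytosolic enzymes more rose than fell, and of the mitochondrial enzymes few passed the test in either direction. Among the 40 members 11 were higher and 4 were lower at an adjusted p below 0.05 (limma across all 13733 genes tested, Benjamini-Hochberg). Over all genes tested, 14.3% were higher and 13.1% lower by this rule, against 27.5% and 10% of the members. Genes of the cytosolic enzymes' own abundance moved more often than all genes did, since 24.1% of genes at 10 FPKM or more were higher and 18.8% lower. At 1 to 20 FPKM, which spans the mitochondrial enzymes, 13.6% of genes were higher and 14.3% lower. Among the 18 cytosolic genes 7 were higher (38.9%) and 2 lower, and among the 17 mitochondrial genes 1 was higher (5.88%) and 2 lower (11.8%). Both dual genes were higher, and so was 1 of 3 scaffold genes. On the log2 scale the median change was 0.07 for cytosolic genes, -0.02 for mitochondrial genes and 0.00 for all genes tested. No member reached a 1.5-fold change as well, against 3.38% of all genes, and the changes of the members called ranged from a fall of 15.7% to a rise of 26.7%. EpA and DMSO libraries did not overlap for 57.5% of the members. The same held for 42.4% of all genes tested and 57.5% of genes at 10 FPKM or more, so such a separation is common. Separation of all 4 groups, or of 6 libraries from 6, was not counted over all genes.

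Eef1e1, the smallest scaffold protein of the complex, had the largest rise. It measured 11.7, 11.7 and 12.2 FPKM in the DMSO libraries, 14.5, 15.3 and 15.5 with EpA, 12.2, 11.7 and 12.2 with fatostatin, and 14.9, 16.6 and 15.4 with both compounds. All 6 libraries with EpA stood above all 6 without it, whether or not fatostatin was present. The log2 fold change with EpA was 0.34 ± 0.041 (SE; adjusted p = 0.000101, limma).

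The isoleucine enzyme Iars1 came next. It measured 42.6, 44.0 and 43.8 FPKM with DMSO, 49.0, 51.1 and 49.2 with EpA, 37.9, 37.8 and 37.4 with fatostatin, and 44.9, 43.3 and 42.1 with both. The EpA libraries were above and the fatostatin libraries below every DMSO library, and the libraries with both compounds overlapped those with DMSO. Iars1 rose by 0.19 ± 0.026 on the log2 scale with EpA (adjusted p = 0.000220, limma). Rars1, the arginine enzyme, which like Iars1 belongs to the complex, rose by 0.16 ± 0.017 (adjusted p = 2.92e-05).

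Hars1, the histidine enzyme, measured 66.4, 67.5 and 66.1 FPKM with DMSO, 75.9, 72.4 and 73.4 with EpA, 60.5, 63.5 and 61.2 with fatostatin, and 67.4, 66.6 and 68.2 with both. Its EpA libraries were again the highest and its fatostatin libraries the lowest, with no overlap of either with DMSO. The rise with EpA was 0.15 ± 0.023 (adjusted p = 0.000643, limma). Hars1 and Hars2 lie head to head with starts 197 bases apart and share 195 exon bases on opposite strands, which is 7.97% of the exon length of Hars1. Whether reads were counted by strand is not given in the sources used here, so reads in such stretches could not be assigned. Hars2 had a log2 fold change of -0.02 with EpA (adjusted p = 0.860, limma).

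Farsb, the phenylalanine enzyme's beta subunit, rose by 0.14 ± 0.034 (adjusted p = 0.00884, limma) and its partner subunit Farsa by 0.12 (adjusted p = 0.0222). The methionine enzyme Mars1 measured 56.7, 57.2 and 56.1 FPKM with DMSO, 62.9, 61.8 and 61.2 with EpA, 50.9, 51.1 and 48.5 with fatostatin, and 53.9, 55.5 and 57.4 with both. Its pattern over the groups was that of Iars1. Mars1 rose by 0.13 ± 0.026 with EpA (adjusted p = 0.00388, limma). It shares 68 exon bases with Ddit3, 1.99% of its exon length. Ddit3, which encodes the stress factor CHOP, gave log2 fold changes of -0.11 with EpA and 0.05 with fatostatin and passed the test in neither.

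The leucine enzyme Lars1, which is also known as a leucine sensor in the mTORC1 pathway, rose by 0.09 with EpA. It measured 34.4, 35.2 and 33.9 FPKM with DMSO, 37.1, 36.8 and 36.3 with EpA, 33.1, 32.7 and 32.9 with fatostatin, and 35.4, 34.6 and 34.7 with both. Its EpA libraries were the highest and its fatostatin libraries the lowest, as for Iars1, and those with both compounds overlapped those with DMSO. The other genes that rose were the dual enzymes Gars1 (glycine) and Kars1 (lysine), and Iars2, the mitochondrial isoleucine enzyme, at 0.08, 0.07 and 0.09. Iars2 shares 2148 exon bases with Rab3gap2 and 2010103J01Rik, which is 24.2% of its exon length. Under 16 alternative settings, which include leaving out each of the 6 libraries compared, the call of Kars1 was lost in 10 (adjusted p up to 0.146), that of Farsa in 4 (up to 0.0814) and that of Iars2 in 3 (up to 0.0619), the last all with 1 library left out.

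The 4 genes that went the other way were split between the compartments. Fars2, the mitochondrial phenylalanine enzyme, measured 5.13, 5.25 and 5.32 FPKM with DMSO, 4.62, 4.07 and 4.51 with EpA, 5.56, 5.98 and 5.55 with fatostatin, and 5.16, 5.11 and 5.07 with both. Its EpA libraries were the lowest and its fatostatin libraries the highest, the reverse of the order seen for Iars1. Fars2 fell by 0.25 ± 0.050 on the log2 scale with EpA (adjusted p = 0.00350, limma). It shares 616 exon bases with Lyrm4 and Nrn1, which is 10.7% of its exon length.

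Tars2, the mitochondrial threonine enzyme, measured 8.64, 9.69 and 9.29 FPKM with DMSO, 8.01, 8.12 and 7.98 with EpA, 9.27, 8.78 and 9.48 with fatostatin, and 7.84, 7.71 and 8.17 with both. Every library with EpA was below every library without it. The fall with EpA was -0.19 ± 0.044 (adjusted p = 0.00773, limma). The cytosolic enzymes that fell were Vars1 (valine), with -0.11 ± 0.024 (adjusted p = 0.00461), and Wars1 (tryptophan), which interferon-γ is known to induce, with -0.10 ± 0.024 (adjusted p = 0.0102).

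**Figure D2:**
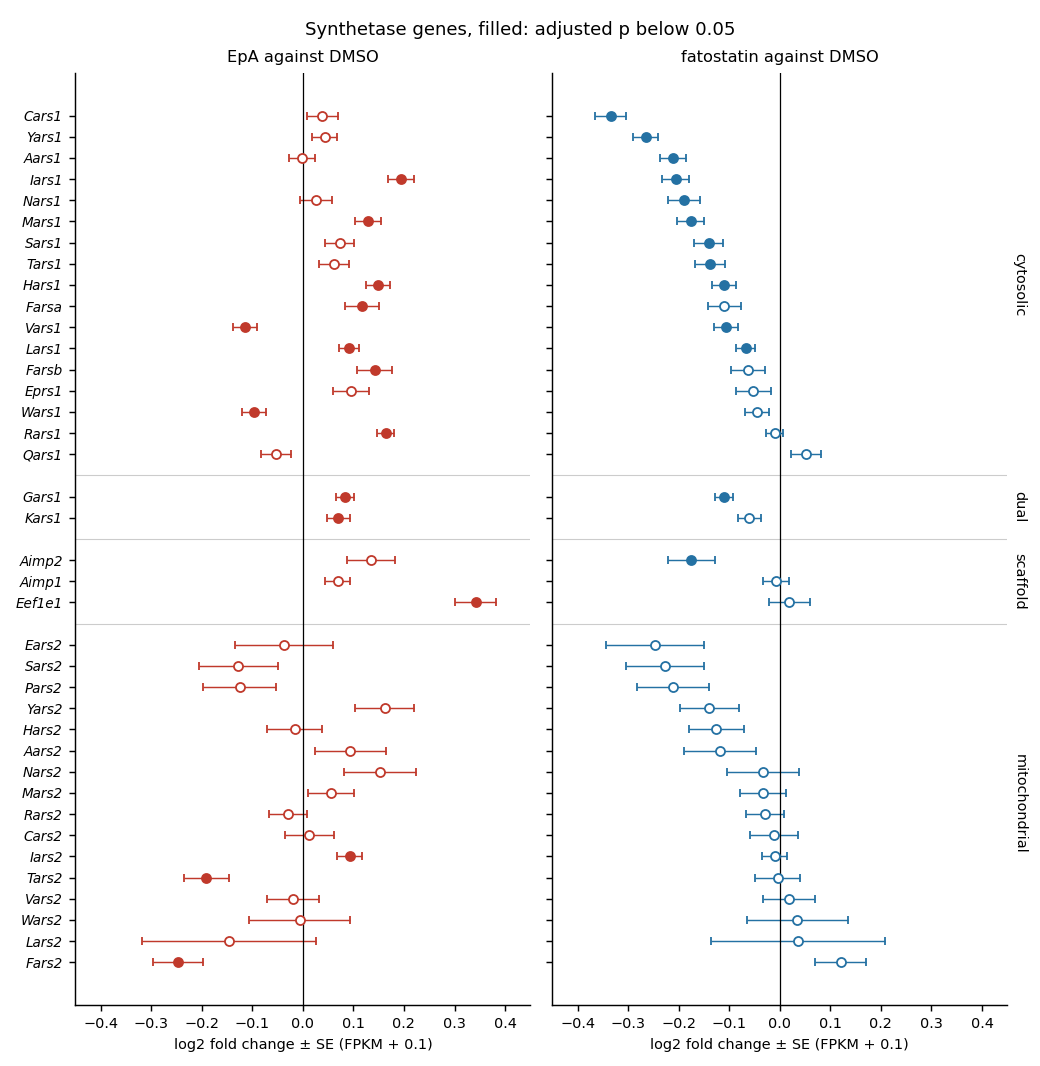
Log2 fold change with its standard error (horizontal) of each member reported by name with EpA (left) and with fatostatin (right), both against DMSO, by class. Filled points passed an adjusted p below 0.05. Filled points on the right are all below 0 and none is mitochondrial, and the median standard error is 0.054 among mitochondrial and 0.026 among cytosolic genes.

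The second comparison asked what fatostatin did to the same genes. It uses the same DMSO libraries as the first, so the pair of comparisons is not independent. With fatostatin 13 members were lower and 0 were higher, against 6.31% of all genes lower and 7.69% higher. Of the 18 cytosolic genes 11 (61.1%) were lower, together with Gars1 and Aimp2, and of the 17 mitochondrial genes 0 passed the test. Among genes at 10 FPKM or more, 12.9% were lower and 9.92% higher. At 1 to 20 FPKM, which spans the mitochondrial genes, 5.22% were lower and 8.75% higher. Of the 17 mitochondrial genes 13 had a negative and 4 a positive log2 fold change. Ears2 (-0.25 ± 0.097), Sars2 (-0.23 ± 0.078) and Pars2 (-0.21 ± 0.071) fell as far as Iars1 (-0.21 ± 0.026). They did not pass the test (adjusted p = 0.124, 0.0789 and 0.0762, limma). Before adjustment limma gave a p below 0.05 to 1 higher and 21 lower members, of which 1 and 5 were mitochondrial, and voom on reads recovered from the FPKM called 0 members higher and 14 lower, 1 of them mitochondrial. The median log2 fold change was -0.11 for cytosolic and -0.03 for mitochondrial genes, against 0.01 for all genes tested and -0.01 for genes at 10 FPKM or more. Again no member reached 1.5-fold, against 1.86% of all genes. Fatostatin and DMSO libraries did not overlap for 55% of the members, 31.3% of all genes tested and 41.8% of genes at 10 FPKM or more.

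The cysteine enzyme Cars1 fell most. It measured 14.9, 15.8 and 15.9 FPKM with DMSO, 15.8, 15.9 and 16.3 with EpA, 12.2, 12.7 and 12.2 with fatostatin, and 13.5, 13.5 and 13.2 with both. All 6 libraries with fatostatin were below all 6 without it, and EpA alone overlapped DMSO. Cars1 fell by 0.33 ± 0.031 on the log2 scale (adjusted p = 2.48e-05, limma).

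Yars1, the tyrosine enzyme, was likewise lower in all 6 libraries with fatostatin than in all 6 without it. Its libraries read 24.5, 24.6 and 24.8 FPKM with DMSO, 25.1, 26.0 and 25.1 with EpA, 20.2, 20.7 and 20.6 with fatostatin, and 21.7, 21.7 and 20.7 with both. The fall was -0.27 ± 0.025 (adjusted p = 2.95e-05, limma), and the log2 fold change with EpA was 0.04 (adjusted p = 0.239). Aars1, the alanine enzyme, whose window carries the ATF4 motif at 2 places, measured 28.1, 28.4 and 28.9 FPKM with DMSO, 28.5, 28.7 and 28.0 with EpA, 25.4, 24.2 and 24.1 with fatostatin, and 24.2, 23.3 and 24.1 with both. Fatostatin libraries were below the others with or without EpA, and EpA alone left no separation from DMSO. Its log2 fold change was -0.21 ± 0.025 (adjusted p = 0.000189). Aars1 shares 1326 exon bases of its own strand with Gm24103 or Exosc6, and Exosc6 is listed at 0 FPKM.

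Iars1, with the values given above, fell by 0.21 ± 0.026 (adjusted p = 0.000270, limma). The asparagine enzyme Nars1 fell by 0.19 ± 0.032 (adjusted p = 0.00198) and Mars1 by 0.18 ± 0.026 (adjusted p = 0.000962). These 6 had the largest falls among the 13. The others that fell were Aimp2, Sars1 (serine), Tars1 (threonine), Hars1, Gars1, Vars1 and Lars1, by between 0.17 (Aimp2) and 0.07 (Lars1). Aimp2 shares 487 exon bases with Eif2ak1, which is 29.4% of its exon length.

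Gars1, the glycine enzyme and the most abundant member, measured 111.7, 110.9 and 115.2 FPKM with DMSO, 120.02, 119.0 and 118.8 with EpA, 103.5, 105.9 and 103.6 with fatostatin, and 112.5, 112.7 and 113.0 with both. EpA libraries lay above and fatostatin libraries below all DMSO libraries. Its log2 fold changes were 0.08 ± 0.017 with EpA (adjusted p = 0.00424) and -0.11 ± 0.017 with fatostatin (adjusted p = 0.00134, limma). Vars1 was lower with each compound. It measured 76.2, 74.0 and 77.5 FPKM with DMSO, 70.0, 69.9 and 70.4 with EpA, 69.0, 71.5 and 70.9 with fatostatin, and 65.2, 67.6 and 68.8 with both. All libraries with a compound were below all DMSO libraries, and its fall with fatostatin was -0.11 ± 0.024 (adjusted p = 0.0124, limma). Side by side, the log2 fold changes with EpA and with fatostatin, which share the DMSO libraries, were 0.19 and -0.21 for Iars1, 0.15 and -0.11 for Hars1, 0.13 and -0.18 for Mars1, and 0.09 and -0.07 for Lars1. Under the 16 alternative settings that bear on each comparison, the fatostatin call of Lars1 was lost in 9 (adjusted p up to 0.131), that of Aimp2 in 7 (up to 0.112) and that of Vars1 without DMSO replicate 3 or fatostatin replicate 1 (up to 0.054).

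**Figure D3:**
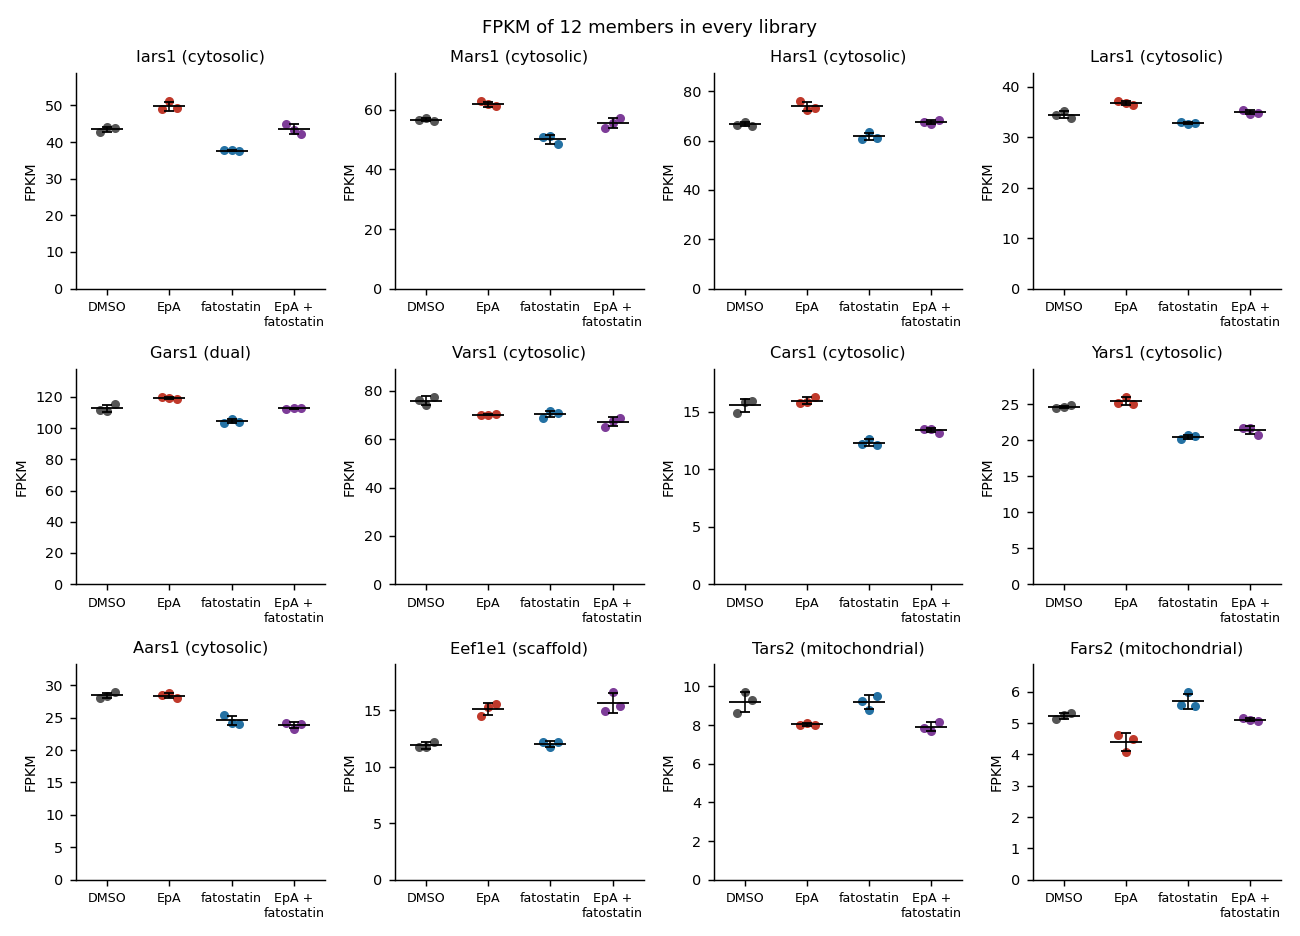
FPKM of 12 members in each of the 12 libraries (vertical axes start at 0), with points for libraries and a bar for the mean ± SD of 3. Iars1, Mars1, Hars1, Lars1 and Gars1 are highest with EpA and lowest with fatostatin, Cars1, Yars1 and Aars1 are lower wherever fatostatin was present, and Eef1e1 is higher and Tars2 lower wherever EpA was present.

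All 5 members whose start window holds the ATF4 motif, Iars1, Tars1, Aars1, Yars1 and Gars1, were among the 13 that fell with fatostatin. The motif was chosen with these falls known, so the counts are a description only. Over all genes tested that hold it in a window, 9.89% fell with fatostatin, against 6.77% of those with a window. Of those 13 members, 8 had a window to search. Of the 6 cytosolic or dual members that had a window and did not fall, 0 held the motif. The E-box was in 3 of the same 8 (Iars1, Tars1 and Aars1, which hold both motifs) and in 1 of the same 6 (Farsb), and 7.7% of all genes tested that hold it in a window fell with fatostatin. With EpA, 2 of the 5 rose (Iars1 and Gars1), and the log2 fold changes of Tars1, Aars1 and Yars1 were 0.06, 0.00 and 0.04.

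The third comparison set both compounds against EpA alone, and so asked what fatostatin did in the presence of EpA. Cytosolic enzymes were again lower. In all, 12 members were lower and 1 higher, against 6.79% and 9.22% of all genes, and 0 of them changed 1.5-fold, against 1.99% of all genes. Of the 18 cytosolic genes 11 were lower, with Gars1 in addition. The median log2 fold change was -0.11 for cytosolic, 0.01 for mitochondrial and 0.01 for all genes tested. The largest falls were those of Aars1 (-0.25 ± 0.025, adjusted p = 4.67e-05, limma), Cars1 (-0.25 ± 0.031, adjusted p = 0.000203) and Yars1 (-0.25 ± 0.025, adjusted p = 4.51e-05). Iars1 followed with -0.19, Mars1 with -0.16 and Tars1 with -0.14, and Hars1, Sars1, Farsa, Gars1, Lars1 and Rars1 made up the rest. The member that rose was Fars2, by 0.21 ± 0.050 (adjusted p = 0.0129). Of the 16 alternative settings, 9 lost the call of Farsa, 8 that of Rars1, 7 that of Lars1, 3 that of Sars1 and 1 that of Fars2 (adjusted p up to 0.134, 0.0841, 0.0997, 0.0585 and 0.0549).

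The fourth comparison set both compounds against fatostatin alone, and so asked what EpA did in the presence of fatostatin. Here 18 members were higher and 3 lower, against 16.2% and 13.3% of all genes, and 0 changed 1.5-fold, against 3.75% of all genes. Of genes at 10 FPKM or more, 25% were higher and 20.8% lower, and of those at 1 to 20 FPKM 16.2% and 13.9%. Of the 18 cytosolic genes 10 were higher and 1 lower, and of the 17 mitochondrial genes 4 were higher and 2 lower. The median change was 0.09 on the log2 scale for cytosolic, 0.06 for mitochondrial and 0.01 for all genes tested. The largest rises were in Eef1e1 (0.37 ± 0.041, adjusted p = 4.71e-05, limma) and in Yars2, the mitochondrial tyrosine enzyme (0.30 ± 0.058, adjusted p = 0.00239). Aars2, Aimp2, Iars1 and Mars2 rose by 0.25, 0.25, 0.21 and 0.18. The 3 that fell were Tars2 (-0.21 ± 0.044, adjusted p = 0.00404), Fars2 (-0.15, adjusted p = 0.0400) and Qars1, the glutamine enzyme (-0.13 ± 0.029, adjusted p = 0.00492). Among the 6 members that lost a call under any of the 16 alternative settings, 10 settings lost that of Fars2, 7 that of Sars1, 5 that of Farsa, 4 that of Aars2 and 1 that of Nars1 (adjusted p up to 0.144, 0.106, 0.0826, 0.0765 and 0.066).

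Yars2 measured 7.82, 7.81 and 7.72 FPKM with DMSO, 8.73, 8.36 and 9.09 with EpA, 6.57, 6.97 and 7.67 with fatostatin, and 8.42, 8.43 and 9.34 with both. All 6 libraries with EpA stood above all 6 without it. Its log2 fold change of 0.16 with EpA alone did not pass the adjustment (adjusted p = 0.0604, limma). Of the 11 members that rose with EpA alone, 10 also rose when EpA was added to fatostatin, the exception being Iars2 (log2 fold change 0.07, adjusted p = 0.0569). Over all genes tested, 1490 of the 1958 that rose with EpA alone (76.1%) also did.

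Whether the EpA effect differed with and without fatostatin was tested as an interaction in the same fit. Of the 40 members 0 passed, against 0.0364% of all genes higher, 0.00728% lower and 0% with a 1.5-fold difference. Before adjustment 1 member, Rars1, was below 0.05 (difference -0.05 ± 0.024, adjusted p = 0.624, limma), and voom called 0. The differences ran from -0.08 (Qars1) to 0.19 (Lars2) on the log2 scale. Their median was 0.01 for cytosolic genes, 0.09 for mitochondrial genes, of which 15 of 17 had a positive difference, and 0.01 for all genes tested. Of the 13733 genes tested 7398 had a positive difference, and of the 7626 at 1 to 20 FPKM 4259 did. The members were measured in the same libraries, so their signs are not independent. Lars2, the mitochondrial leucine enzyme, had the widest spread of the members, with 8.22, 12.6 and 9.07 FPKM in the fatostatin libraries and 8.34, 9.10 and 13.5 with both, against 8.43 to 9.97 in the other libraries. The standard error of its difference was 0.24.

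The compartments are best set side by side as sums. The 18 cytosolic genes summed to 771 ± 2.83 FPKM with DMSO, 806 ± 8.09 with EpA, 713 ± 6.21 with fatostatin and 749.9 ± 1.996 with both (SD, n = 3), and no group overlapped another. The 17 mitochondrial genes summed to 108 ± 0.286, 107 ± 0.441, 105 ± 2.44 and 109 ± 4.42 FPKM in the same order. The DMSO libraries (108.1 to 108.7 FPKM) stood just above those with EpA (106.7 to 107.5) and with fatostatin (102 to 107), which overlapped, and those with both compounds (106 to 114) overlapped all of them. The highest of the last, at 114 FPKM, was the library in which Lars2 was at 13.5 FPKM. The dual genes summed to 192 ± 3.497, 203 ± 2.07, 181 ± 2.88 and 196 ± 0.973 FPKM, and the scaffold genes to 53.5 ± 1.19, 60.0 ± 1.16, 50.6 ± 1.38 and 58.7 ± 1.94 FPKM. A sum leans on its most abundant genes, so the mean of the log2 levels, where each gene counts alike, was taken as well. Cytosolic minus mitochondrial, this mean was 2.87 to 2.89 with DMSO, 2.94 to 2.98 with EpA, 2.80 to 2.84 with fatostatin and 2.77 to 2.85 with both. EpA libraries lay above and all libraries with fatostatin below those with DMSO. No p is given for these summaries, since the members were chosen with results known.

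**Figure D4:**
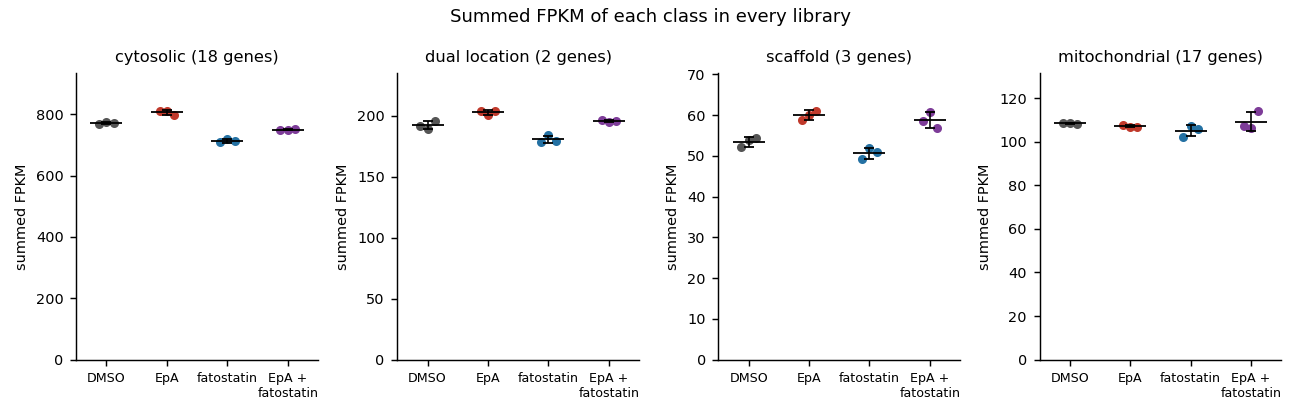
Summed FPKM (vertical, from 0) of the cytosolic, dual, scaffold and mitochondrial genes in each of the 12 libraries, with the mean ± SD of 3 libraries per group. The cytosolic sum steps from 713 with fatostatin to 806 with EpA without overlap, and the mitochondrial sum stays between 102 and 114.

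Pair by pair, the log2 fold change of the cytosolic enzyme was above that of its mitochondrial counterpart in 12 of 18 pairs with EpA and below it in 13 of 18 with fatostatin. The difference between the log2 fold changes of a pair had a median of 0.12 with EpA and -0.11 with fatostatin. When fatostatin was added to EpA it was negative in 15 of 18 pairs (median -0.13), but when EpA was added to fatostatin it was positive in 10 and negative in 8, with a median of 0.03. It was largest with EpA for phenylalanine, at 0.39 for Farsb and 0.36 for Farsa over Fars2, and with fatostatin for cysteine, at -0.32. The exceptions with EpA included tyrosine, alanine, valine, tryptophan and asparagine, with -0.09 to -0.13.

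Membership of the multisynthetase complex was also compared. Of the 8 enzymes of the complex 5 were higher with EpA and 3 lower with fatostatin, while of the 12 cytosolic or dual genes outside it 4 were higher and 2 lower with EpA and 9 lower with fatostatin. Median log2 fold changes with fatostatin were -0.06 inside and -0.12 outside. Among all genes at 10 FPKM or more, 24.1% were higher and 18.8% lower with EpA and 12.9% lower with fatostatin, whereas 62.5% of the enzymes inside the complex and 33.3% outside it were higher with EpA, and 37.5% and 75% were lower with fatostatin. The difference between these groups of genes was not tested. By catalytic class, 4 of 9 class I and 5 of 10 class II cytosolic or dual genes were higher with EpA, and 6 and 6 were lower with fatostatin, leaving out Eprs1, which carries both folds.

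Other genes of tRNA charging were counted from fixed lists. Over all genes tested, 14.3% were higher and 13.1% lower with EpA, and 7.69% higher and 6.31% lower with fatostatin, so 1 or 2 genes called in a list of 4 to 10 say little about that list. Of 16 tRNA maturation genes, which trim tRNA ends and add the CCA tail, 8 were higher with EpA and 0 passed the test with fatostatin (2 before adjustment and 0 with voom). The largest rises among the 8 that passed were those of the RNase P subunits Pop5 (0.22), Pop1 (0.21), Pop4 (0.20) and Rpp30 (0.17). Of 10 mitochondrial translation factors, 2 were higher with EpA (Tufm by 0.25 and Gfm1 by 0.11) and 0 passed with fatostatin (1 before adjustment and 1 with voom). Of 7 cytosolic elongation factors, 2 were higher with EpA (Eif5a by 0.19, Eef1d by 0.09) and 2 lower (Eef1a1 with -0.21, Eef2 with -0.06), and Eef1d and Eif5a were lower with fatostatin (-0.11 and -0.10). Among 6 genes of selenocysteine charging and insertion, Eefsec (-0.20) and Sephs1 (-0.07) were lower with EpA and Sephs1 (-0.11) with fatostatin. With EpA Sephs1 passed narrowly (adjusted p = 0.0497, limma), and voom called 1 of the 6 lower. Of 4 partners of mitochondrial charging, 0 passed with EpA (0 before adjustment and 0 with voom), and Qrsl1, a subunit of the enzyme that makes mitochondrial glutaminyl-tRNA, was lower with fatostatin (-0.21). The 7 proofreading and recycling genes and Tarsl2, a threonine enzyme paralog outside the rule, passed the test with neither compound, and voom called none of them.

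Among 7 genes of the pathway that runs from uncharged tRNA through GCN2 and eIF2α to ATF4, with its regulators, Atf4, Eif2s1 (0.21) and Gcn1 (0.12) were higher with EpA, and Atf4 and Ppp1r15b (-0.13) were lower with fatostatin. Atf4 measured 98.3, 95.4 and 98.4 FPKM with DMSO, 110.0, 112 and 112 with EpA, 76.5, 78.3 and 75.8 with fatostatin, and 87.2, 89.9 and 91.6 with both. The 4 groups did not overlap, and their order was that of the cytosolic sum. It was not that of the dual sum, which was 192 FPKM with DMSO and 196 with both. How many other genes share the order was not counted, and a link between Atf4 and the synthetases was not tested. Atf4 rose by 0.19 with EpA (adjusted p = 7.22e-05, limma) and fell by 0.34 with fatostatin (adjusted p = 1.39e-06). It also fell by 0.31 when fatostatin was added to EpA and rose by 0.22 when EpA was added to fatostatin. ATF4 is controlled mainly at translation, and its protein was not measured in these files.

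Of 30 ATF4 targets that are no synthetases, 11 were higher and 1 lower with EpA, and 2 were higher and 12 lower with fatostatin, against the shares of all genes just given (14.3% and 13.1%, then 7.69% and 6.31%). Their median log2 fold changes were 0.11 and -0.17. The targets that moved most in either comparison went both ways. Chac1, which degrades glutathione, gave -0.83, Trib3, a pseudokinase that feeds back on ATF4, -0.61, and Slc1a4, an amino acid transporter, -0.57 with fatostatin, whereas Sesn2, a leucine sensor that restrains mTORC1, gave 0.98. Sesn2 measured 7.21, 7.70 and 7.40 FPKM with DMSO, 10.3, 10.0 and 9.71 with EpA, 15.2, 14.2 and 14.8 with fatostatin, and 17.6, 17.1 and 18.2 with both, so it rose with each compound. Asns, the asparagine synthetase and a classic target, was added after its values were seen. It gave 0.15 with EpA and -0.25 with fatostatin (adjusted p = 0.000594 and 2.37e-05, limma).

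**Figure D5:**
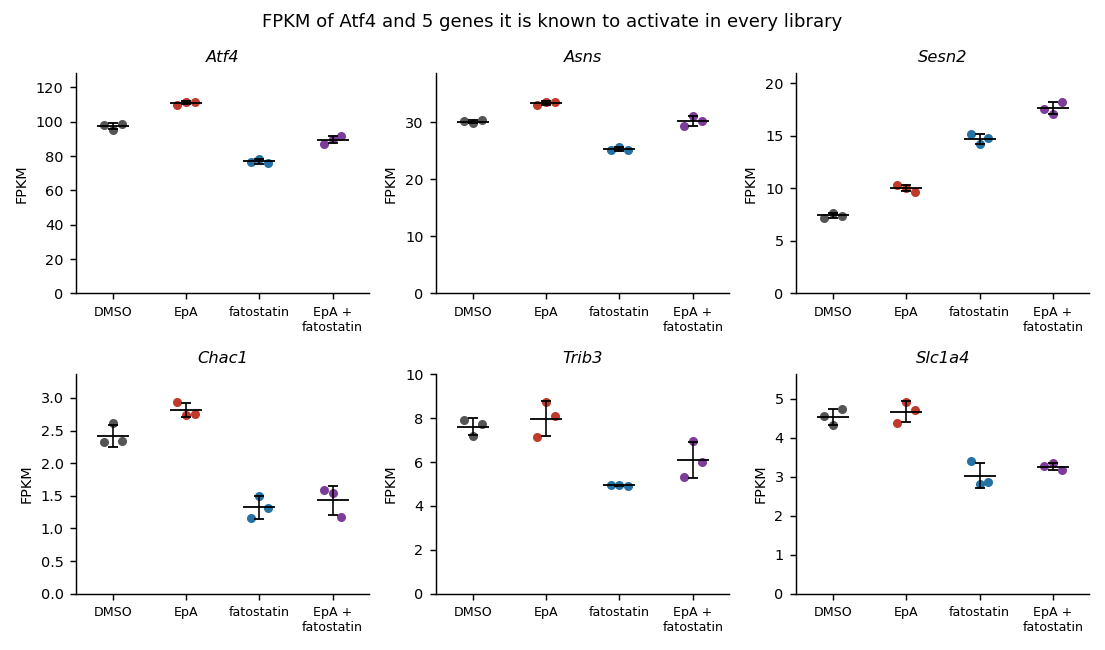
FPKM (vertical, from 0) of Atf4 and of 5 genes that ATF4 is known to activate in each of the 12 libraries, with the mean ± SD of 3 per group. Atf4 and Asns are highest with EpA and lowest with fatostatin, Chac1, Trib3 and Slc1a4 are lower with fatostatin, and Sesn2 is higher with either compound.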

How the data were processed

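RNA-seq was measured in 12 libraries of Th9 cells, 3 in each of 4 groups assigned from the sample titles. The authors used Trim Galore to trim, HISAT2 to align (GRCm38) and featureCounts to count, and deposited FPKM values, whose annotation release and strand setting are not given in the sources used here. The table held 32352 lines for 32051 genes. The 301 repeated lines with the same values were merged, and 0 columns belonged to no sample. With exon lengths from GENCODE M21, 98.6% to 98.8% of a library's values were whole reads (tolerance 0.01), at 0.0225 to 0.0273 FPKM for 1 read on 1 kb. limma 3.58.1 (R 4.3.3) was fitted to log2(FPKM + 0.1) of the 13733 genes that averaged 0.1 FPKM or more, with 1 mean per group, all 4 groups in the fit, a trended prior and Benjamini-Hochberg adjustment over all genes, after being tested on simulated data. Fold changes are on the log2(FPKM + 0.1) scale, which understates changes of low genes.

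Members, gene lists and tests were chosen with earlier results of these data known. Of the members, 2 are counted but not reported by name here. Test values are given for the members with the 6 largest called changes per direction and comparison. Outside that rule they are given for those with library values and for Farsa, Hars2, Iars2 and Rars1. Those of Ears2, Sars2 and Pars2 were added after they were seen. Library values are given for members called with both EpA and fatostatin or changed most in a comparison. Yars1, Yars2 and Lars2 were added after their values were seen. At most 4 genes are given per other list. Start windows came from RefSeq. Exon bases shared with other genes were counted for each member, and 16 of 40 shared some. Alternatives were another pseudocount, filter, scaling, set of groups, prior or replicate block, voom on the recovered reads, and each library left out.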

Additional observations from a re-analysis of the deposited data

How the results depend on the processing

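The calls were repeated under 10 other fits and with each of the 12 libraries left out. In no case did a called member change direction. With EpA 12 of 15 called members passed under every alternative, with fatostatin 10 of 13, with both compounds against EpA 8 of 13 and against fatostatin 15 of 21. Kars1 with EpA, Lars1 and Aimp2 with fatostatin, Farsa and Rars1 with both against EpA, and Fars2 with both against fatostatin lost the call most often. Requiring a 1.5-fold change as well left 0 members in every comparison. Fitting only the compared groups left 0 higher members in both compounds against EpA, since Fars2 was no longer called.

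With the replicate block, counts of higher and lower members were 13 and 4 with EpA, 0 and 14 with fatostatin, 1 and 13 with both against EpA, 19 and 3 with both against fatostatin, and 0 in the interaction. The libraries share only a number: same-numbered libraries deviated together with correlations of -0.0472 to 0.0744 in 18 pairs, and 7 of 12 libraries correlated best with their own number.

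Without 1 library at a time, higher members were 8 to 11 and lower members 4 with EpA, lower members 10 to 13 with fatostatin, 8 to 12 with both against EpA (1 higher), and 15 to 18 higher and 2 to 3 lower with both against fatostatin. The cytosolic median (log2) was 0.056 to 0.092 with EpA, -0.124 to -0.094 with fatostatin, -0.119 to -0.093 and 0.083 to 0.099 with both against EpA and against fatostatin, and -0.003 to 0.024 in the interaction. The mitochondrial median was -0.028 to 0.01, -0.047 to -0.013, -0.003 to 0.033, 0.034 to 0.087 and 0.066 to 0.101 in the same order; it turned positive with EpA (0.01) without DMSO replicate 2, and the cytosolic interaction median turned negative (-0.003) without replicate 1 of both compounds. The mitochondrial median with both against EpA (0.011) also turned negative without EpA replicate 2 (-0.003) and under median-ratio scaling (-0.007). The medians under the fits other than TPM and median-ratio scaling were added after the data were seen. Counting dual genes as cytosolic gave -0.09 and 0.102 with both against EpA and against fatostatin, and median-ratio scaling gave -0.124, 0.075 and, in the interaction, -0.002. The cause was not tested. Neither scaling moved the median of all genes by 0.1. The mitochondrial class mean varied more than the cytosolic one with fatostatin (SD 0.0284 against 0.0105 on the log2 scale) and with both compounds (0.041 against 0.00522), the groups in which Lars2 was high in 1 library each, but not with DMSO (0.00424 against 0.00869) or EpA (0.0109 against 0.0126).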
